A study of Mus musculus with 6 samples.

Results

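A set of 10 genes from the interferon-inducible GTPase families was followed in mouse articular chondrocytes depleted of *Sephs1*, which encodes selenophosphate synthetase 1. They were 6 guanylate-binding protein genes (*Gbp2*, *Gbp3*, *Gbp4*, *Gbp5*, *Gbp6* and *Gbp7*) and 4 immunity-related GTPase genes (*Igtp*, *Irgm1*, *Irgm2* and *Iigp1*), picked by symbol from the 24532 genes of the table. All 10 were found. They had been chosen with their measured difference between the siRNA groups already known, so that difference is given for them as a description and carries no test. The cells were primary chondrocytes from the knee joints of 5-day-old ICR mice, cultured at 3% oxygen, and the groups compared were cells given siRNA against *Sephs1* and cells given negative control siRNA, with 3 libraries each. Each siRNA was used at 50 nM for 12 h and was followed by 48 h in fresh medium, and both groups went through 2 such transfections. The study's methods call the 3 libraries of a group biological replicates. The only *Sephs1* siRNA arm was set against the only control siRNA arm, so loss of *Sephs1* and other properties of the siRNA preparation cannot be told apart, and the pups behind each culture are not stated in the sources used here.

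Guanylate-binding proteins (GBPs) are large GTPases that assemble on the vacuoles of intracellular bacteria and parasites and on bacterial surfaces, and they promote the caspase-11 and inflammasome pathways. Immunity-related GTPases (IRGs) act on the same vacuoles. In the mouse, Irgm1, Irgm2 and Igtp (also called Irgm3) sit on endogenous membranes and hold back the effector IRGs, of which Iigp1 (Irga6) is one. Both families are textbook targets of interferon, which signals through Janus kinases to transcription factors. The gamma-activated sequence (GAS) and the interferon-stimulated response element (ISRE) are the DNA elements through which the signal reaches its target genes, a complex with STAT2 and IRF9 binds the ISRE, and IRF1 binds closely related letters.

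The promoters of the family are shown first because the 7 genes with a promoter at hand share a sequence feature. That feature was not used to choose the members. They come from families known as targets of interferon, however, so the share of matches is no independent result. RefSeq promoters (250 bases before to 50 bases after the annotated start, build GRCm38.p6) were at hand for 7 of the 10 genes, *Gbp2*, *Gbp3*, *Gbp5*, *Gbp7*, *Igtp*, *Irgm1* and *Irgm2*. *Gbp4*, *Gbp6* and *Iigp1* were not among them. Each line below is an 80-base window on the strand of the gene, 5′ to 3′. Capitals mark an ISRE-type match (GAAA, 2 bases of any kind, GAAA, which reads TTTC, 2 bases of any kind, TTTC on the other strand) or a GAS-type match (TTC, 3 bases of any kind, GAA, the same on both strands).
Gbp2, chr3:142620564-142620643, plus strand: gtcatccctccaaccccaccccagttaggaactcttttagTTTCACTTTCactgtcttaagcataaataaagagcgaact
Gbp3, chr3:142559959-142560038, plus strand: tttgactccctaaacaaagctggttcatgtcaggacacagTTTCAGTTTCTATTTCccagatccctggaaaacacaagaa
Gbp5, chr3:142496729-142496808, plus strand: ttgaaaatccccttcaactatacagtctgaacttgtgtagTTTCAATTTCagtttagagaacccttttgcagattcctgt
Gbp7, chr3:142530243-142530322, plus strand: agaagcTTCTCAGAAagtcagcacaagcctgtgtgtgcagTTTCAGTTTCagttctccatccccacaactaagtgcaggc
Igtp, chr11:58199482-58199561, plus strand: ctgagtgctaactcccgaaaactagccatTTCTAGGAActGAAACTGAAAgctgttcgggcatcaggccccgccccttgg
Irgm1, chr11:48871411-48871490, minus strand: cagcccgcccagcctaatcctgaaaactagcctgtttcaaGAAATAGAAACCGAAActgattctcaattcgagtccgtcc
Irgm2, chr11:58214873-58214952, plus strand: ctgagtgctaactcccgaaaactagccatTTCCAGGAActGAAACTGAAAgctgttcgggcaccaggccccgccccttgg

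The ISRE-type letters were found in the promoters of all 7 genes, against 3.44% of the 32851 mouse promoters of the same length (1131 promoters). *Gbp3* has 2 annotated starts and only one of its promoters held the match, so 7 of 8 member promoters did. With a looser spelling (GAAA, 3 bases of any kind, AAA) all 8 matched, against 12.3% of all promoters. In the 4 GBP genes the element read on the strand opposite to the gene and in the 3 IRG genes on the same strand. It ended 15 to 55 bases before the start in 6 of the 7 genes and at −156 in *Gbp5*. In *Gbp3* and *Irgm1* a pair of overlapping matches formed one longer run.

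The GAS-type letters were found in 4 of the 7 genes (*Gbp5*, *Gbp7*, *Igtp* and *Irgm2*), against 8.30% of all promoters, and the same 4 genes were the ones that held both elements, against 0.454% of all promoters. *Gbp2*, *Gbp3* and *Irgm1* had the ISRE-type letters without the GAS-type letters in this window. The *Igtp* and *Irgm2* promoters were 92.1% identical over 265 aligned bases, and in both only 2 bases lay between the GAS-type and the ISRE-type match, so these neighbours are not separate observations. The next most alike pair, *Irgm1* and *Irgm2*, was 71.8% identical. A match describes letters only and shows no binding in these cells.

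**Figure D1:**
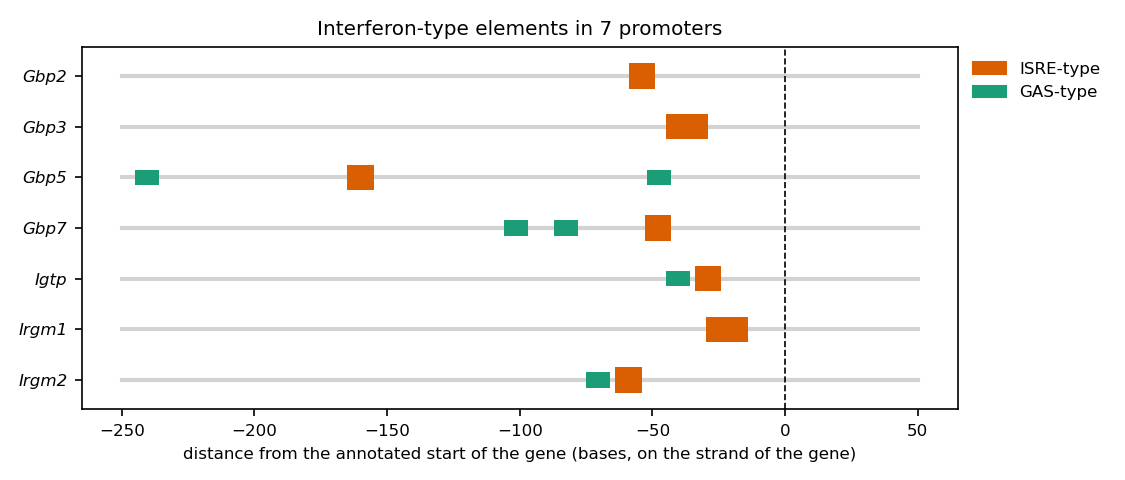
Position of the interferon-type elements in the promoters of 7 GTPase genes. The x axis is the distance in bases from the annotated start on the strand of the gene, grey lines are the 300 bases searched, orange boxes are ISRE-type matches and green boxes GAS-type matches. All 7 lines carry an orange box, and 4 of them (*Gbp5*, *Gbp7*, *Igtp* and *Irgm2*) carry green ones.

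The libraries held 58214060 to 80887889 reads assigned to genes, so that 1 read was worth 0.0128 to 0.0179 CPM (counts per 1000000, scaled by TMM), and the 10 members together had 922 to 3102 reads in a library. *Sephs1* stood at 36.1, 24.9 and 21.5 CPM in *Sephs1* siRNA replicates 1, 2 and 3, against 50.7, 44.7 and 44.7 CPM in the controls. The log2 fold change was −0.76 (SE 0.19), with an adjusted p of 0.392 in the edgeR fit over 14223 genes, or 0.0400 once the replicate number was added as a block. The chondrocyte genes *Col2a1* (64279 to 78135 against 69981 to 89890 CPM) and *Acan* (6820 to 9280 against 6796 to 11614 CPM) were abundant in every library. The 18 macrophage markers summed to 17.1 to 23.7 CPM in *Sephs1* siRNA libraries and 18.9 to 25.6 CPM in controls. Of them 7, *Aif1*, *C1qa*, *C1qc*, *Fcer1g*, *Fcgr1*, *Itgam* and *Tyrobp*, had no read in any library, and another 7 were read in every library. The highest was *Laptm5*, at 5.39 to 11.6 against 5.91 to 14.0 CPM. *Fcgr3* was lower with *Sephs1* siRNA, at 0.293 to 0.580 against 0.772 to 1.49 CPM (unadjusted p = 0.0155 from edgeR). *Laptm5* and *Fcgr3* were picked out after their values had been seen. No read was found for 12 of the 14 lymphocyte markers given, among them *Cd3e*, *Cd4* and *Ms4a1*, and the sums were 0.0743 to 0.321 CPM in *Sephs1* siRNA libraries and 0 to 0.281 CPM in controls. The fibroblast and synovial markers summed to 21125 to 24791 CPM in *Sephs1* siRNA libraries and 22102 to 28448 CPM in controls. For the endothelial markers the sums were 2.91 to 4.54 CPM and 2.74 to 4.23 CPM. The ranges of each of these marker sums overlapped between the groups.

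The GBP genes *Gbp5*, *Gbp7*, *Gbp3* and *Gbp2* in that order, lie within 141075 bases of chromosome 3 (142496934 to 142638008), and each was at a higher mean level with *Sephs1* siRNA. *Gbp2*, a prenylated GBP that reaches pathogen vacuoles, had 5.51, 8.36 and 7.79 CPM in *Sephs1* siRNA replicates 1 to 3, against 2.74, 3.78 and 3.41 CPM in the controls. Every *Sephs1* siRNA library lay above every control, with means of 7.22 ± 1.51 and 3.31 ± 0.525 CPM (SD, n = 3 each) and a log2 fold change of 1.12 (SE 0.21). The adjusted p of *Gbp2* from edgeR was 0.0251 in the blocked fit and 0.355 unblocked. No other member tested was under 0.05 in the blocked fit, beside 0.83% of all genes higher by that rule. *Gbp2* was chosen on this contrast, so nothing is read from these values.

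*Gbp3* had 0.654, 1.62 and 1.11 CPM with *Sephs1* siRNA, against 0.430, 0.561 and 0.506 CPM in the controls, for a log2 fold change of 1.17 (SE 0.36). The groups did not overlap, but the lowest *Sephs1* siRNA library stood close to the highest control, and these values rest on 24 to 116 reads a library. *Gbp7*, which in mice is linked to the assembly of the NADPH oxidase on pathogen vacuoles, had 0.758, 3.56 and 3.59 CPM, against 0.412, 0.612 and 1.54 CPM. Its groups overlapped, because *Sephs1* siRNA replicate 1 lay below control replicate 3. The log2 fold change of *Gbp7* was 1.61 (SE 0.70), and 2.35 without control replicate 3. Of the 100-base words in the annotated *Gbp7* transcripts 10.0% also occur in another gene, nearly all in *Gm43802*, so part of its reads could have been divided between the pair.

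The 3 regulatory IRG genes, all on chromosome 11, had every *Sephs1* siRNA library above every control. *Irgm1*, which restrains effector IRGs and takes part in autophagy, had 9.63, 16.8 and 14.2 CPM with *Sephs1* siRNA, against 8.52, 8.78 and 6.69 CPM in the controls. The groups were apart, though *Sephs1* siRNA replicate 1 lay close to the highest control, with means of 13.5 ± 3.61 and 8.0 ± 1.14 CPM (SD, n = 3 each) and the smallest log2 fold change of the 6 members tested, 0.76 (SE 0.22). *Irgm2* had 3.6, 5.93 and 5.33 CPM against 2.15, 2.60 and 1.74 CPM, and *Igtp* had 2.78, 4.89 and 4.02 CPM against 2.26, 2.03 and 1.45 CPM. These differences gave log2 fold changes of 1.19 (SE 0.25) for *Irgm2* and 1.03 (SE 0.27) for *Igtp*. *Igtp* (58199556 to 58207592) and *Irgm2* (58214977 to 58222783) are neighbours whose GENCODE transcripts share 109 words of 100 bases. Some reads of one could therefore have been counted for the other. *Irgm1* (48865245 to 48871420) shared no such word with any other gene.

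**Figure D2:**
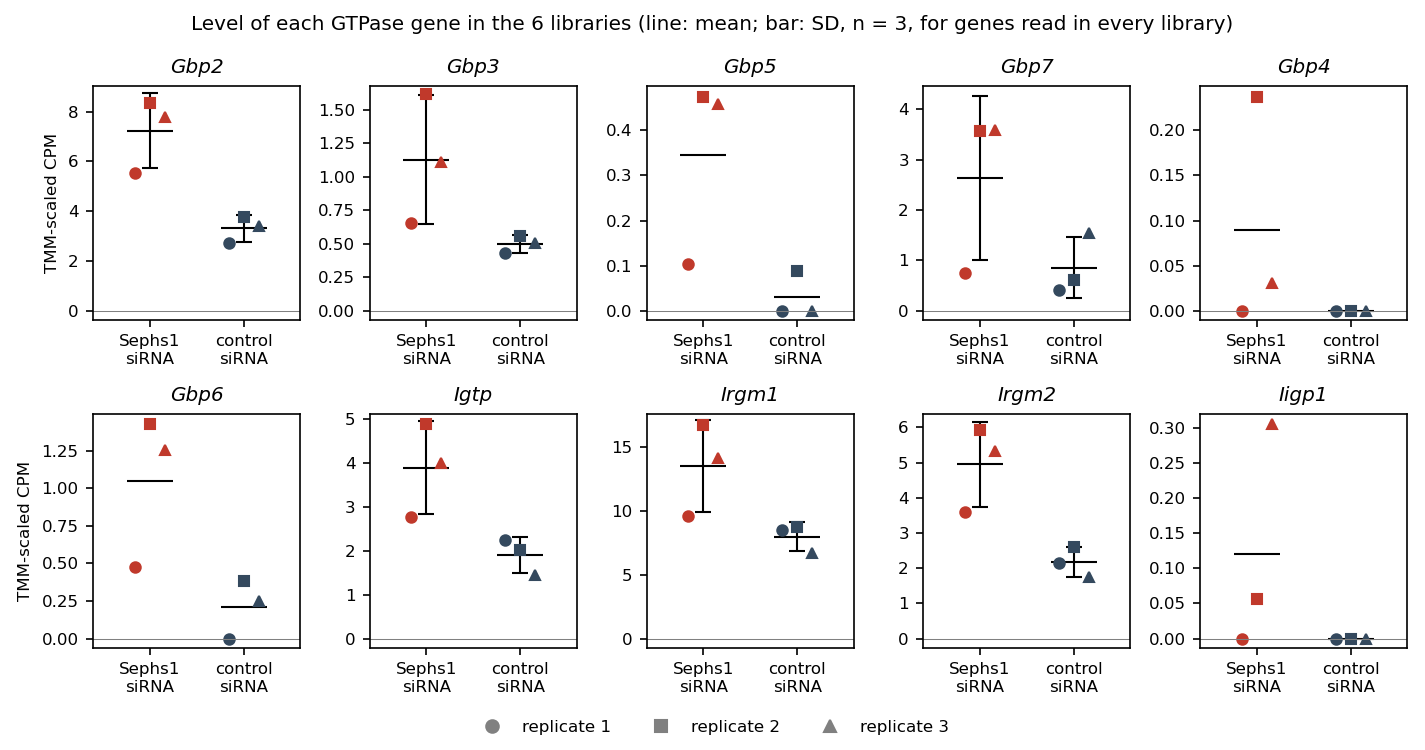
TMM-scaled CPM of the 10 GTPase genes, with one panel a gene and its own linear y axis. Each point is a library, red for *Sephs1* siRNA on the left and dark grey for control siRNA on the right, with the replicate number as the symbol, the line is the mean and the bar is the SD (n = 3), drawn for the 6 genes read in every library. Replicate 1 (circle) was the lowest *Sephs1* siRNA library in all 10 panels, and in *Gbp7* it lay below control replicate 3.

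The remaining 4 members had no read in at least one library, which kept them out of the test across genes. *Gbp6*, on chromosome 5 (105270702 to 105295871), had 32, 102 and 82 reads with *Sephs1* siRNA, against 0, 30 and 19 reads in the controls. *Gbp5*, which in mice promotes NLRP3 inflammasome assembly, had 7, 34 and 30 reads against 0, 7 and 0 reads. For both genes every *Sephs1* siRNA library was above every control in CPM, but *Gbp5* had the same 7 reads in *Sephs1* siRNA replicate 1 and in control replicate 2. Summed over the groups and scaled to depth, the ratio was 4.52 for *Gbp6* and 10.4 for *Gbp5*, where 7 control reads in a single library set the denominator. Of the 100-base words of *Gbp6* 64.5% occur also in *Gm43302*, *Gbp10* or other GBP genes, so its level is uncertain.

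*Gbp4*, on chromosome 5 (105115767 to 105139586), had 0, 17 and 2 reads with *Sephs1* siRNA and none in any control. *Iigp1*, on chromosome 18 (60373616 to 60392634), the only effector-type IRG among the members, had 0, 4 and 20 reads and none in any control. Set against 3 reads over the control group, *Gbp4* was at least 6.49-fold higher and *Iigp1* at least 8.20-fold higher. One library supplied most of the reads in each case, *Sephs1* siRNA replicate 2 for *Gbp4* and replicate 3 for *Iigp1*, and both genes were at 0 in *Sephs1* siRNA replicate 1. These bounds allow for counting error in the controls only, and the *Sephs1* siRNA reads enter as counted.

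Of the 6 members tested, 5 were higher by the study's own cutoff, an unadjusted p under 0.05, here from edgeR, and 0 were lower, beside 4.98% of all 14223 genes higher by that rule. The exception in this fit was *Gbp7* (unadjusted p = 0.0552 from edgeR). The study applied its cutoff to a DESeq2 Wald test. With DESeq2 all 6 were higher at an unadjusted p under 0.05, beside 1252 of the 14223 genes in either direction. With the replicate block in edgeR all 6 were higher too, beside 3462 genes in either direction. The 5 members other than *Gbp7* had every *Sephs1* siRNA library above every control, beside 7.8% of all genes. At an adjusted p under 0.05 edgeR called none of the 6, beside 0.0141% of all genes in either direction, and with the replicate block 1, beside 0.83% of all genes in that direction. DESeq2 called 3 of the 6 higher (*Gbp2*, *Igtp* and *Irgm2*), beside 1.03% of all genes. The members were chosen on this contrast, so nothing is read from these counts. Their median log2 fold change was 1.15, beside 0.01 over all genes tested, and 1.40 over all 10 members when no gene was filtered out, both with fitted values and with *Gbp4* and *Iigp1* at their bounds. Both genes lie above that median either way, so putting them at their bounds could not move it.

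The size of the difference varied with the replicate pair. The median log2 ratio over the 6 members was 0.67 in pair 1, 1.23 in pair 2 and 1.20 in pair 3. *Gbp2* was the steadiest, with log2 ratios of 1.01, 1.15 and 1.19, and *Irgm1* and *Igtp* varied most in relation to their size, with 0.18, 0.93 and 1.08 for *Irgm1* and 0.30, 1.27 and 1.47 for *Igtp*. *Sephs1* siRNA replicate 1 had the lowest value of all 10 members in its group. It was also the *Sephs1* siRNA library with the most *Sephs1* mRNA left, 36.1 CPM beside 24.9 and 21.5 CPM. The part of the remaining *Sephs1* mRNA in the members' values was not tested.

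**Figure D3:**
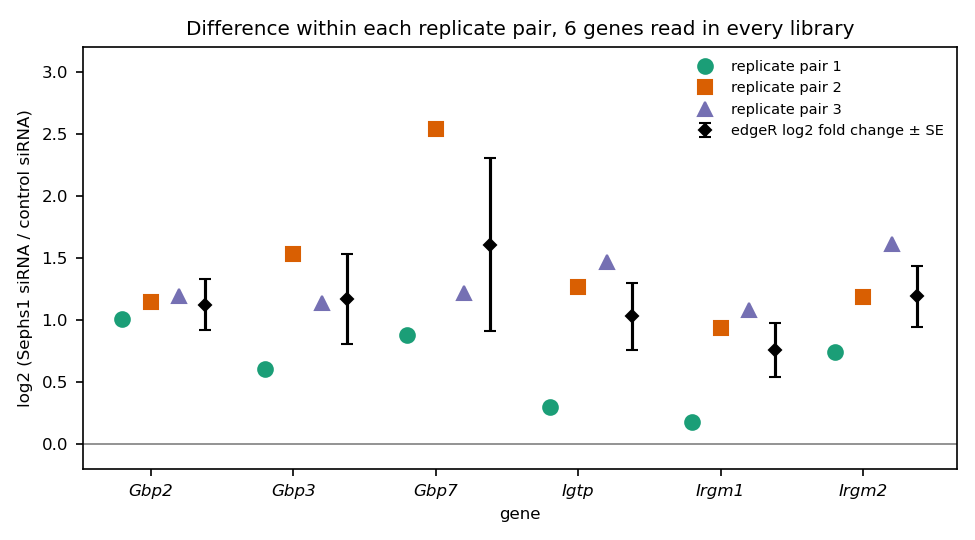
Log2 ratio of *Sephs1* siRNA over control siRNA within each replicate pair (coloured symbols) and the edgeR log2 fold change with its SE (black) for the 6 GTPase genes read in every library. All 18 ratios lie above 0, pair 1 is the lowest for every gene, and the widest spread is that of *Gbp7*, at 0.88, 2.54 and 1.22.

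In the controls the lowest library differed between genes. *Gbp2*, *Gbp3*, *Gbp6* and *Gbp7* were lowest in control replicate 1, whereas *Igtp*, *Irgm1* and *Irgm2* were lowest in control replicate 3. *Gbp5* had no read in either of these. Control replicate 2 was the highest for genes of both families, *Gbp2*, *Gbp3*, *Gbp5*, *Gbp6*, *Irgm1* and *Irgm2*, but not for *Igtp* and *Gbp7*. Across the 6 libraries Pearson's r between members, on log2 CPM and over 15 pairs of genes, was 0.628 to 0.985 with a median of 0.901. Once each group's mean was removed it was 0.208 to 0.964 with a median of 0.765. The points share their libraries and depth, and these values are descriptions.

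Levels between genes were compared on the length-scaled FPKM values. *Irgm1* was the most abundant member at 6.09 ± 1.63 FPKM with *Sephs1* siRNA and 3.45 ± 0.414 FPKM in the controls, followed by *Gbp2* at 2.95 ± 0.633 and 1.3 ± 0.217 FPKM, *Igtp* at 1.93 ± 0.528 and 0.904 ± 0.177 FPKM and *Irgm2* at 1.41 ± 0.354 and 0.591 ± 0.107 FPKM (SD, n = 3 each). *Gbp7* was at 0.472 ± 0.293 and 0.148 ± 0.109 FPKM and *Gbp3* at 0.431 ± 0.190 and 0.171 ± 0.027 FPKM. The last 4, *Gbp6*, *Gbp5*, *Iigp1* and *Gbp4*, averaged 0.244 FPKM or less with *Sephs1* siRNA and 0.0471 FPKM or less in the controls. With *Sephs1* siRNA the ranges of *Gbp2*, *Igtp* and *Irgm2* overlapped as neighbours, as did those of each neighbouring pair from *Gbp7* down, and only the steps from *Irgm1* to *Gbp2* and from *Irgm2* to *Gbp7* were clear of the spread. In the controls the top 5, *Irgm1*, *Gbp2*, *Igtp*, *Irgm2* and *Gbp3*, were each clear of the next down to *Gbp3*, which overlapped *Gbp7*.

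The 10 genes summed to 9.39, 16.7 and 15.0 FPKM with *Sephs1* siRNA, against 6.5, 7.29 and 6.06 FPKM in the controls. Every *Sephs1* siRNA sum was above every control sum, with means of 13.7 ± 3.83 and 6.62 ± 0.626 FPKM (SD, n = 3 each). *Irgm1* made up 44.4% of the group's mean sum with *Sephs1* siRNA and 52.1% in the controls, and *Gbp2* 21.5% and 19.6%. In these bulk cultures a higher level in every cell and a larger number of expressing cells cannot be told apart.

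Most other genes of both families had few reads or none. Of 21 further genes listed, from these families and the very large inducible GTPases, 9 had no read in any library. *Irgq*, a divergent member of the IRG family, was the only one of the 21 read in every library. *Irgq* had 38.8, 36.0 and 41.8 CPM with *Sephs1* siRNA and 36.1, 38.4 and 37.6 CPM in the controls, a log2 fold change of 0.06 (SE 0.08, adjusted p = 0.862 from edgeR). The 20 genes with a 0 in some library summed to 316 reads with *Sephs1* siRNA and 97 reads in the controls. *Gvin1* alone gave 137 of the 316 reads. *Gvin1*, a very large interferon-inducible GTPase, had 11, 67 and 59 reads against none in any control, at least 46.8-fold higher against 3 reads over the group. *Gbp2b*, the gene of mouse GBP1, had 5, 7 and 4 reads against none, at least 5.46-fold higher, and *Gbp10* had 2, 61 and 36 reads against 6, 0 and 9 reads, which overlapped. Not every relative ran that way, since *Gm12250* had 7, 15 and 0 reads with *Sephs1* siRNA and 7, 31 and 13 reads in the controls. The bounds of *Gvin1* and *Gbp2b* also take the *Sephs1* siRNA reads as counted. *Gvin1*, *Gbp2b*, *Gbp10* and *Gm12250* were picked out after their values had been seen.

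Among 11 related large GTPases tested, 1 was higher and 0 lower by the unadjusted cutoff, beside 4.98% of all genes higher. None passed once p was adjusted over all genes, by edgeR or DESeq2. The one was *Mx2*, an antiviral GTPase, also named after its values were seen, with 0.565, 1.06 and 0.886 CPM against 0.376, 0.383 and 0.333 CPM (log2 fold change 1.20, SE 0.30, edgeR adjusted p = 0.392). The list's median was 0.06.

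The genes upstream of the family were followed from ligand to transcription factor. Of 14 ligand genes 9 had no read in any library, *Ifng* and the 4 interferon alpha genes listed among them, and *Ifnb1* had 3 reads in *Sephs1* siRNA replicate 1 and none elsewhere. For *Ifng*, 0 reads allow up to 3 reads a library, so its mRNA was not detectable at this depth. The interferon receptors and their kinases were read in every library, *Ifnlr1* at under 1 CPM, and none of the 9 passed the unadjusted cutoff with edgeR or the adjusted one with edgeR or DESeq2, with a median log2 fold change of 0.08. *Ifngr1*, the ligand-binding chain for interferon gamma, had 32.9, 31.7 and 29.99 CPM with *Sephs1* siRNA and 31.7, 27.5 and 30.4 CPM in the controls, and *Jak1* had a log2 fold change of 0.12 (SE 0.07).

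Of the 10 transcription factors tested, 6 were higher and 1 lower by the unadjusted cutoff, beside 4.98% of all genes higher. None passed at an adjusted p from edgeR without the block, and DESeq2 called 1 (*Stat2*), beside 1.03% of all genes higher. *Stat2* had 16.1, 23.6 and 22.1 CPM with *Sephs1* siRNA, against 13.1, 14.1 and 11.1 CPM in the controls, a log2 fold change of 0.69 (SE 0.17). The groups of *Stat2* were apart.

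*Irf1*, which binds ISRE-type letters and drives many GBP genes, had 15.2, 15.8 and 16.3 CPM against 13.5, 12.9 and 12.5 CPM, a small and even difference (log2 fold change 0.28, SE 0.08). *Irf9* was at 0.42 (SE 0.11), *Irf7* at 0.63 (SE 0.22) and *Nlrc5*, the transactivator of MHC class I genes, at 0.78 (SE 0.28). *Irf3*, which relays the sensing of nucleic acids, was the one lower, at −0.25 (SE 0.10), with 20.3, 18.0 and 21.7 CPM against 24.5, 22.4 and 24.5 CPM. *Stat3* and *Irf2* were at 0.03 and 0.04. *Ciita* and *Batf2* had no read in any library.

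Further targets of interferon were counted in the same fit. Of 20 type I interferon targets tested, 12 were higher and 0 lower by the unadjusted cutoff, beside 4.98% of all genes higher, with a median log2 fold change of 0.84. Adjusted over all genes, edgeR called none of them without the block and 4 with it (*Xaf1*, *Oasl2*, *Ifit1* and *Eif2ak2*), beside 0.83% of all genes higher, and DESeq2 called 6, beside 1.03%. *Isg15*, a ubiquitin-like modifier, had 7.58, 11.5 and 9.91 CPM against 5.60, 4.86 and 3.90 CPM (log2 fold change 1.01, SE 0.20, adjusted p = 0.360 from edgeR). *Xaf1*, a pro-apoptotic interferon target, had 5.10, 7.74 and 6.25 CPM against 2.95, 3.89 and 2.60 CPM (log2 fold change 1.01, SE 0.22), and its adjusted p from edgeR was 0.392 without and 0.0398 with the block.

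Of 15 interferon gamma targets tested outside the members, 8 were higher and 1 lower by the unadjusted cutoff, beside 709 higher and 517 lower of all 14223 genes, with a median of 0.71. Adjusted over all genes, edgeR called none without the block and 1 with it (*Tapbp*), beside 0.83% of all genes higher, and DESeq2 called 3 (*B2m*, *Lgals3bp* and *Tapbp*), beside 1.03%. *Tapbp*, the tapasin of peptide loading, had 109.6, 116.9 and 108.1 CPM against 82.1, 75.8 and 67.4 CPM (log2 fold change 0.57, SE 0.09, adjusted p from edgeR 0.331 without and 0.0355 with the block). *B2m*, the light chain of MHC class I, had 468, 627 and 706 CPM against 370, 355 and 373 CPM (log2 fold change 0.71, SE 0.15). *Wars*, a tryptophanyl-tRNA synthetase, was lower at −0.15 (SE 0.06). As for the GTPases, *Sephs1* siRNA replicate 1 was the lowest of its group for *B2m*, *Isg15*, *Xaf1* and *Stat2*, but not for *Tapbp*, which was lowest in replicate 3.

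Of 10 feedback inhibitors, 2 were higher and 0 lower by the unadjusted cutoff, beside 4.98% of all genes higher. Adjusted over all genes, edgeR called none with or without the block and DESeq2 called 1 (*Usp18*), beside 1.03% of all genes higher. *Usp18*, which removes ISG15 and damps the type I receptor, had 2.73, 5.82 and 4.23 CPM against 1.34, 1.52 and 0.759 CPM (log2 fold change 1.82, SE 0.37). Its edgeR adjusted p was 0.360, or 0.0540 when blocked. *Trim24* was at 0.24 (SE 0.08). *Socs1*, the main brake on interferon gamma signalling, had 9.59, 9.06 and 11.8 CPM against 10.5, 9.97 and 13.0 CPM and did not pass the test (log2 fold change −0.14, SE 0.15).

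**Figure D4:**
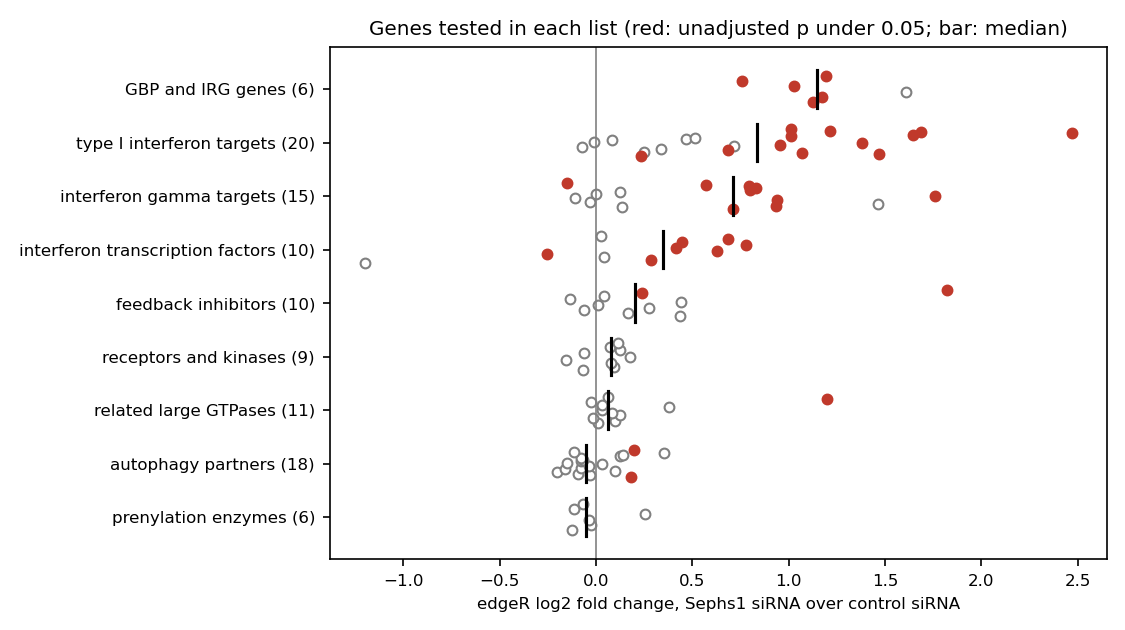
EdgeR log2 fold change (x axis, *Sephs1* siRNA over control siRNA) of each tested gene in the GTPase set and 8 related lists, with the number tested after each name. Red points had an unadjusted p under 0.05, open points did not, and the black bar is the list's median. The medians were 1.15 for the GTPase genes, 0.84 and 0.71 for the interferon targets, 0.35 for the transcription factors, 0.08 for receptors and kinases and −0.05 for autophagy partners and for prenylation enzymes.

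The machinery that GBPs and IRGs work with was counted in the same fit. Of 18 genes of autophagy and ubiquitin-like conjugation, which loads GTPases onto vacuoles, 2 were higher and 0 lower by the unadjusted cutoff. Of all genes 4.98% were higher by that rule. In 4 of the 18 every *Sephs1* siRNA library was above every control, beside 7.8% of all genes. *Becn1*, picked out after its values had been seen, had every *Sephs1* siRNA library below every control. The log2 fold change was above 0 in 7 of the 18 and below 0 in 11. None of the 18 passed the adjusted cutoff with edgeR or DESeq2, and the median was −0.05. *Ulk1*, an initiating kinase of autophagy, was at 0.20 (SE 0.07) and *Atg12*, a ubiquitin-like conjugate, at 0.18 (SE 0.06). Of 6 prenylation enzymes, which attach the lipid that some GBPs carry, none passed the unadjusted cutoff with edgeR or the adjusted one with edgeR or DESeq2, with a median of −0.05. Only 3 of 12 inflammasome and pyroptosis genes were read in every library (*Pycard*, *Gsdmd* and *Casp4*), none of the 3 was called by those rules, and 7 of the 12, *Nlrp3* and *Il1b* among them, had no read.

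The genes whose log2 CPM over the 6 libraries was most like the mean standardised profile of the 6 tested members were ranked among 10049 genes averaging at least 5 CPM. *0610030E20Rik* (Pearson's r = 0.984), *Chfr* (0.983), *Tinagl1* (0.982), *Arrdc3* (0.981) and *Stat2* (0.979) came first. With the group means removed the leading genes were other ones, *Armc9* (0.988), *Elmod2* (0.986), *Golga1* (0.983), *Acox2* (0.980) and *Jak3* (0.978). These are the highest of many values over only 6 libraries that share depth and group, and are given as a description.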

How the data were processed

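Poly-adenylated RNA of 3 *Sephs1* siRNA and 3 control siRNA cultures was sequenced from a stranded kit. Per the labels and methods, mm10 alignments came from HISAT2 2.1.0, and the authors took per-gene values from StringTie 1.3.4d. They deposited a table of raw read counts, which StringTie estimates from transcript coverage, and length-scaled FPKM values, and whether counting used strand is not given in the sources used here. The table also holds fold changes and p-values of the authors' own comparison, which were not used. No value column lacked a sample (0 left over).

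Counts were fitted with edgeR 4.0.16 (quasi-likelihood test, TMM scaling, Benjamini-Hochberg adjustment, two-sided). Following the study's methods, only the 14223 genes with at least 1 read in every library were tested. A gene's SE is its log2 fold change divided by the root of F. DESeq2 1.42.0, limma 3.58.1 on log2 FPKM (with 1 or 0.1 added), other filters and scalings, a replicate block and leaving out each library were tried. The main fit, which gave the SEs, held no replicate block, because the study's methods name no pairing. Replicate numbers were used as pairs only for the pair ratios and the blocked fit. Deviations from group means correlated at 0.485, 0.247 and 0.469 between same-numbered libraries (threshold 0.1), and at most −0.02 between different numbers. Deviations cancel out within a group, so positive values for the same numbers push the others down. What the numbers share is not stated in the labels.

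The members and all gene lists were chosen with earlier results of these data known. Named were the members, *Sephs1*, *Col2a1*, *Acan*, *Sox9*, ligand, receptor and transcription factor genes, up to 2 genes per other list and direction with the smallest p at a mean of at least 1 CPM, and the 5 genes most like the members by each of 2 measures; exceptions are stated where they occur. Correlations used log2 CPM with 0.5 added to each read count before scaling. Promoters and coordinates are from RefSeq (GRCm38.p6, the assembly of mm10), and shared words from GENCODE M21 transcripts. The edgeR fit was tested on simulated counts.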

Additional observations from a re-analysis of the deposited data

How the results depend on the processing

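Over all genes, edgeR called 2 at an adjusted p under 0.05, and the count was 234 with the replicate block, 211 with DESeq2, 0 with limma on log2(FPKM + 1), 1 with limma on log2(FPKM + 0.1) and 0 to 3 on leaving out one library. At an unadjusted p it was 1226, 3462 with the block and 733 to 1606 on leaving out one library. Members at an adjusted p numbered 0, with 1 under the block, 3 by DESeq2 and 0 on leaving out any library. Members higher at an unadjusted p numbered 5 of 6, and 6 of 6 under the block or by DESeq2. That count was 4 to 6 on leaving out one library and 7 of 10 with no filter on low counts. Their median log2 fold change of 1.15 was 0.60 on the log2(FPKM + 1) scale, where the added 1 shrinks differences between low values, and 0.92 to 1.32 on leaving out one library. Of 78 values of single members under 13 alternatives, 74 kept their direction and side of the threshold, 4 passed it in addition (*Gbp2* with the block and DESeq2, *Igtp* and *Irgm2* with DESeq2) and none reversed. The log2 fold change of *Gbp7* ranged from 1.28 to 2.35 on leaving out one library and was 0.34 on the log2(FPKM + 1) scale and 1.11 on the log2(FPKM + 0.1) scale. Depth limits *Gbp4*, *Gbp5*, *Gbp6* and *Iigp1*, which had a library without reads.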
